A study of Mus musculus with 12 samples.

Results

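The proteasome genes of MC38 tumors were taken as the rows of the table whose symbol begins with Psma, Psmb, Psmc, Psmd, Psme, Psmf or Psmg and a digit, with pseudogene names left out. There were 50 such genes of 15170, and no measured value was used to choose them. Within them 5 genes induced by interferon-gamma (Psmb8, Psmb9, Psmb10, Psme1 and Psme2, together called the immunoproteasome genes here) were set against the 45 others. MC38 is a mouse colon adenocarcinoma cell line, labelled wild type, that was grown as a syngeneic tumor. RNA of tumor blocks was sequenced from animals given vehicle or the purified β-1,3/1,6-glucan BG136 into a vein. BG136 was given alone here, in a study that also joined it to PD-1 antibodies, which release a brake on T cells. The source of the glucan is named differently in the series title (Durvillaea Antarctica) and in its design text, and no dose, day, mouse strain, sex or age is given in the sources used here. There were 6 libraries per group. Between BG136 libraries 7 and 9 the difference was below sampling noise, so they were counted as 1 sample by averaging, BG136 7-9, which left 6 vehicle and 5 BG136 samples.

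The proteasome degrades proteins tagged with ubiquitin. Its 20S core is a barrel of alpha and beta rings in which the beta subunits Psmb5, Psmb6 and Psmb7 cut the chain, and its 19S cap unfolds and feeds in the substrate. Under interferon-gamma, Psmb8, Psmb9 and Psmb10 take the places of Psmb5, Psmb6 and Psmb7 in newly built cores, and Psme1 and Psme2 form the PA28 activator that docks on the core ends. The exchanged core favours peptides that fit MHC class I molecules, which T cells read on tumor cells. Leukocytes carry immunoproteasomes without stimulation, so RNA of a tumor block cannot tell transcripts of its tumor cells from those of its infiltrate.

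The promoters are shown first because the 2 gene groups are known for different controls, interferon-gamma and factors such as Irf1 for one and the factor Nfe2l1 for the other. RefSeq start sites on GRCm38.p6 gave windows for 42 of the 50 members. Each window ran from 250 bases before to 50 bases after a start. The 5 sequence patterns searched in them, on both strands, were TTCNNNGAA (the GAS, or gamma-activated site, pattern), GAAANNGAAA (read by interferon regulatory factors), TGACNNNGC (the antioxidant response pattern read by Nfe2l1 and Nfe2l2), CCAAT and TATAAA. Psmb9 and Tap1, a pump that moves peptides into the endoplasmic reticulum, start back to back in the MHC region, and the sequence between their starts is printed whole, on the plus strand, with Psmb9 leaving to the left and Tap1 to the right. The other sequences are the 120 bases before the start, on the strand of the gene, for Psmb8, which is Psmb9's neighbour, and for the constitutive Psmb5 and Psmb6. Capitals mark CCAAT in the first, the GAS pattern in the second and the antioxidant response pattern in the last pair. The 120 bases before the starts of Psmb10, Psme1 and Psme2 held none of these patterns and are not printed. Psmb7 had no window.
Psmb9 and Tap1, chr17:34187331-34187555, plus strand: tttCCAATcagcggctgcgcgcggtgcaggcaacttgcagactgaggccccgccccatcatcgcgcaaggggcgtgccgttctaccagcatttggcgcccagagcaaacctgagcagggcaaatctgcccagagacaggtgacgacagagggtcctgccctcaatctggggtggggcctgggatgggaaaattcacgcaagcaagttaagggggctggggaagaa
Psmb8, chr17:34198075-34198194, plus strand: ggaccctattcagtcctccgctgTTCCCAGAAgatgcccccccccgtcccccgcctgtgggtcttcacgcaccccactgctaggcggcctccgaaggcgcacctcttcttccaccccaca
Psmb5, chr14:54617996-54618115, minus strand: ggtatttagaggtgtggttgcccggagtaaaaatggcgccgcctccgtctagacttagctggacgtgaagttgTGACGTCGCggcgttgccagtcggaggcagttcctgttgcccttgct
Psmb6, chr11:70525237-70525356, plus strand: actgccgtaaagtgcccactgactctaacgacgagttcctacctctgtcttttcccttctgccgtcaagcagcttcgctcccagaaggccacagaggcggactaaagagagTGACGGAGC
The GAS pattern began at position -97 from the Psmb8 start, and the antioxidant response pattern at -47 from the Psmb5 start and -9 from the Psmb6 start. Among the 5 immunoproteasome genes the GAS pattern was in the Psmb8 window and in no other, the interferon regulatory factor pattern in that of Psme1, at position 9 within the transcript, and the antioxidant response pattern in none. Over the 42 members with a window, 3 held the GAS pattern, 5 the interferon regulatory factor pattern, 6 the antioxidant response pattern, 14 CCAAT and 4 TATAAA. Of all 27025 windows, 8.47% held the GAS pattern, 3.49% the interferon regulatory factor pattern, 12.5% the antioxidant response pattern, 37.9% CCAAT and 14.2% TATAAA. The matches describe these letters and are not measured binding sites.

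Before the values, 2 facts about the samples matter. Vehicle 11 and vehicle 12 stood apart in how FPKM depended on gene length. In vehicle 11 the shortest 20% of genes lay 0.56 above the longest 20% in the median log2 deviation from the gene means, in vehicle 12 0.31 and in BG136 2 0.17, while the other 8 samples lay between -0.20 and 0.005. Of the 49 members tested, 46 are shorter than the median gene tested, at 554 bases for Psmg4 and 731 for Psmb3, whereas Psme4 has 7650 bases and is longer than 87.8% of the genes tested. The second fact concerns cell content. The 5 T cell markers summed to 27.4 FPKM in BG136 6, against 50.1 to 80.5 in vehicle samples and 49.1 to 93.8 in the other BG136 samples. The 6 epithelial and colon markers that have a row summed to 3.13 FPKM in BG136 6 and 4.70 in BG136 4, with Krt18 at 0 in both and Krt8 at 0 in BG136 4, against 10.1 to 33.3 in the other samples. The low sums came from Epcam, Krt8, Krt18 and Krt19, and Vil1 was near 0 in all samples. Cdh1 was not low, at 4.41 FPKM in BG136 4 and 2.84 in BG136 6, against 2.24 to 4.28 in vehicle samples. The 4 adipocyte markers summed to 54.2 to 86.8 FPKM in vehicle and 21.2 to 49.6 in BG136 samples, without overlap, and the 5 skeletal muscle markers to between 1.54 FPKM in vehicle 12 and 223.5 in vehicle 3, with 127.2 in vehicle 11. Their part in the results was not tested. In a tumor block fewer cells of a type and less RNA per cell cannot be told apart. Depth was 14828786 to 18125931 recovered reads in 10 libraries and 33231037 and 32956232 in BG136 7 and 9. Whether each sample is a separate animal is not stated, and the p-values therefore reflect sample-to-sample spread that may be technical.

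The catalytic and structural subunits of the proteasome, except the testis form Psma8, were abundant in both groups. The immunoproteasome genes lay within or above the range of the constitutive core subunits. Psmb9 was just below the lowest constitutive beta subunit, Psmb5. FPKM is per length of transcript, so levels of different genes can be compared roughly on this scale. The trend with gene length differed between samples, and some members share sequence with other genes. Over the 11 samples the mean level ran from 50.5 FPKM (Psma3) to 165.6 (Psma2) among the 7 alpha subunits of the core, and from 118.7 (Psmb5) to 222.8 (Psmb2) among the 7 constitutive beta subunits. The 6 ATPases that form the motor of the cap ran from 62.0 (Psmc2) to 118.9 (Psmc3), and the 11 other cap subunits from 41.4 (Psmd11) to 154.9 (Psmd8). The 7 assembly chaperones, which help build the core and the base of the cap without staying in them, were lower, at 13.2 (Psmd10) to 31.5 (Psmd5). The 5 immunoproteasome genes ran from 116.8 (Psmb9) to 325.3 FPKM (Psmb8), and the mean of Psmb8 was the highest of all 50 members. Psma8, an alpha subunit used in the testis, had a mean of 0.115 FPKM from 1 to 7 reads per library and was the only member under the filter on low values, so 49 members were tested.

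**Figure D1:**
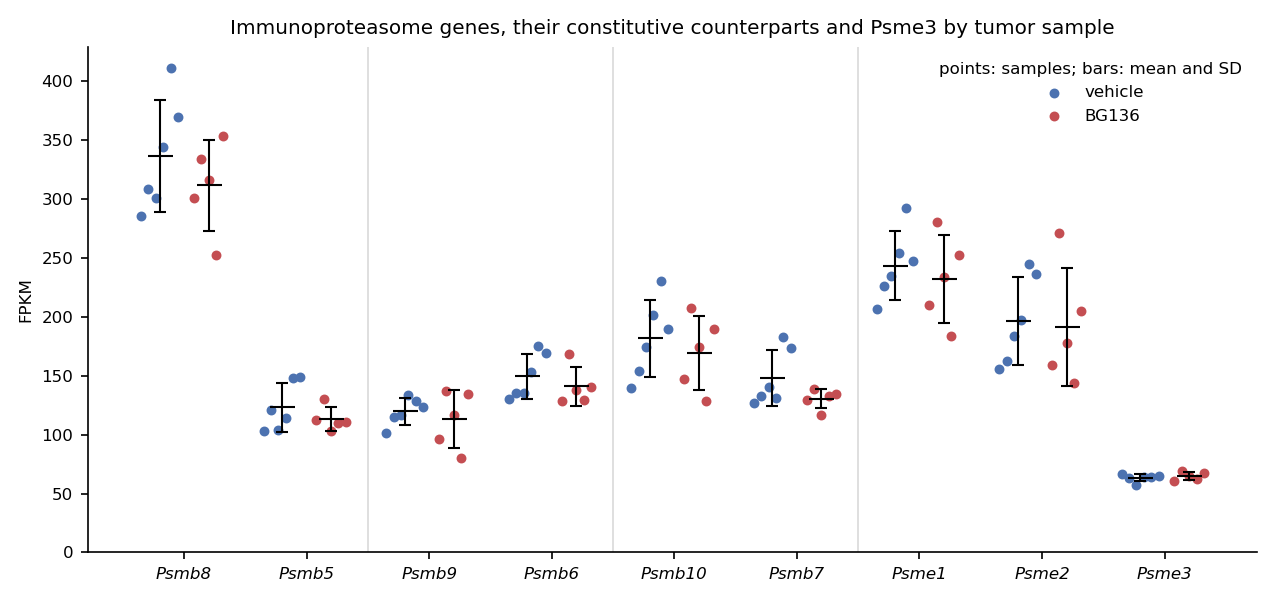
FPKM of the 5 immunoproteasome genes and of their constitutive or alternative counterparts in each tumor sample, on a linear axis that starts at 0. Points are samples, 6 vehicle and 5 BG136, and lines are group means with SD. The groups overlap for every gene plotted.

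The immunoproteasome genes did not differ between BG136 and vehicle tumors beyond the spread between samples. Psmb8, the induced chymotrypsin-like subunit, was at 285.8, 308.2, 300.9, 344.1, 411.4 and 369.7 FPKM in vehicle 1, 2, 3, 7, 11 and 12, and at 300.9, 334.2, 315.9, 252.9 and 353.9 in BG136 1, 2, 4, 6 and 7-9. The lowest value belonged to BG136 6 and the highest to vehicle 11, and the groups overlapped. Its group means were 336.7 ± 47.8 (SD, n = 6) for vehicle and 311.6 ± 38.3 (SD, n = 5) for BG136. The log2 difference, BG136 minus vehicle on the log2(FPKM + 1) scale, was -0.11, with a 95% interval of -0.35 to 0.13 and a limma adjusted p of 0.978.

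Psmb9, which replaces Psmb6, was at 101.3, 114.7, 117.0, 133.9, 128.8 and 123.7 FPKM in the vehicle samples and at 96.2, 137.3, 116.9, 80.5 and 134.8 in the BG136 samples, in the same orders. BG136 samples took both ends of the range, BG136 6 the lowest and BG136 2 the highest, and their SD of 24.6 was larger than the 11.6 of the vehicle samples. The log2 difference was -0.11 (95% interval -0.39 to 0.18, limma adjusted p = 0.978). Psmb10, which replaces Psmb7, was at 140.0, 154.4, 174.0, 201.2, 230.7 and 189.8 FPKM in the vehicle samples and at 147.6, 207.2, 174.7, 128.5 and 189.3 in the BG136 samples. BG136 6 was again the lowest and vehicle 11 the highest, and the groups differed by -0.10 in log2, with a 95% interval of -0.41 to 0.21 (limma adjusted p = 0.978).

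The PA28 genes showed the same order of extremes in part. Psme1 was at 206.8, 226.1, 234.7, 253.9, 292.5 and 247.3 FPKM in the vehicle samples and at 209.9, 280.2, 233.8, 183.3 and 252.1 in the BG136 samples. Psme2 was at 155.4, 162.5, 183.5, 197.5, 244.5 and 236.2 FPKM in the vehicle samples and at 159.2, 271.0, 177.5, 143.7 and 204.7 in the BG136 samples. BG136 6 had the lowest level of both, vehicle 11 the highest of Psme1 and BG136 2 the highest of Psme2, and the groups overlapped. The log2 differences were -0.08 (95% interval -0.32 to 0.17, limma adjusted p = 0.978) and -0.05 (-0.41 to 0.30, limma adjusted p = 0.982). Psme2 shares 59.3% of its 50-base words with Psme2b, a retrogene copied from it that is itself a member by its name (62.4 ± 10.8 FPKM in vehicle, 57.8 ± 9.1 in BG136), so the split of reads between this pair is uncertain.

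The constitutive counterparts were at similar levels in both groups. Psmb5 was at 103.3, 120.8, 104.2, 113.7, 148.2 and 149.2 FPKM in the vehicle samples and at 112.1, 130.6, 103.4, 109.9 and 110.3 in the BG136 samples. Psmb6 was at 130.6, 135.3, 135.0, 153.0, 174.8 and 169.0 FPKM in the vehicle samples and at 129.0, 168.6, 137.6, 129.0 and 140.5 in the BG136 samples. Psmb7 was at 127.1, 132.9, 140.7, 131.0, 183.0 and 173.2 FPKM in the vehicle samples and at 129.4, 138.4, 117.0, 132.8 and 134.5 in the BG136 samples. For all 3 genes vehicle 11 and 12 were the 2 highest samples and the rest of both groups overlapped. Their log2 differences were -0.11, -0.08 and -0.17, each with a limma adjusted p of 0.978. Psmb5 shares 49.4% of its 50-base words with a processed pseudogene, Gm3375, and its level is uncertain to that extent.

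Because each induced subunit takes the place of a constitutive one, the share of the induced transcript in each pair was computed per sample. Psmb8 made up 73.3% ± 1.5 (SD, n = 6) of Psmb8 plus Psmb5 in vehicle and 73.2% ± 2.6 (SD, n = 5) in BG136 tumors. Psmb9 made up 44.6% ± 2.0 of Psmb9 plus Psmb6 in vehicle and 44.2% ± 3.9 in BG136 tumors. Psmb10 made up 55.01% ± 3.1 of Psmb10 plus Psmb7 in vehicle and 56.2% ± 4.8 in BG136 tumors. The group means differed by less than 1 SD in each pair. BG136 6 had the lowest share of all 11 samples in all 3 pairs, at 69.7%, 38.4% and 49.2%, and the highest were 76.2% and 49.0% in BG136 7-9 and 60.6% in vehicle 7. Vehicle 11 and 12, so high in the single genes, were at 73.5% and 71.2% for Psmb8, 42.4% and 42.3% for Psmb9 and 55.8% and 52.3% for Psmb10. In all 3 pairs vehicle 12 had the lowest share of any sample except BG136 6. Vehicle 11 was next lowest for Psmb9 and nearer the middle of the samples for Psmb8 and Psmb10.

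The remaining activators and the inhibitor varied little. Psme3 encodes the nuclear form of PA28, which interferon-gamma does not induce, and was at 63.5 ± 3.1 FPKM (SD, n = 6) in vehicle and 64.7 ± 3.5 (SD, n = 5) in BG136 tumors, a log2 difference of 0.03. Psme4 encodes PA200, a large activator of the core, and was at 17.5, 18.5, 17.9, 16.6, 14.9 and 17.4 FPKM in the vehicle samples and at 18.7, 16.5, 17.8, 19.7 and 18.5 in the BG136 samples. Vehicle 11, highest for most members, was the lowest for Psme4, and BG136 6 was the highest. Its log2 difference was 0.09 (95% interval -0.06 to 0.23, limma adjusted p = 0.978). It was 0.004 once the trend of FPKM with gene length was removed. Psmf1, the inhibitor PI31, was at 10.99 ± 0.77 FPKM in vehicle and 11.15 ± 0.75 in BG136 tumors, a log2 difference of 0.02.

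Across all members the fit found no difference between the groups. Of 11356 genes tested, 0 had a limma adjusted p under 0.05 (0%), and 0 of 49 members did, the smallest being 0.978. At an unadjusted p under 0.05 limma called 233 genes (2.05%) and 0 members. The groups did not overlap, with BG136 higher, in 13 genes (0.114%) and 0 members, and with BG136 lower in 13 genes (0.114%) and 0 members. The log2 difference was below 0 for 40 of 49 members, against 42.6% of all genes tested. Members share a length class and vary together, so these 40 are not independent. The median log2 difference was -0.10 over the 5 immunoproteasome genes, -0.07 over the 44 other members tested and 0.02 over all genes tested. All 7 alpha subunits, 7 constitutive beta subunits and 6 ATPases were below 0, with medians of -0.07, -0.12 and -0.09. The other cap subunits had a median of -0.04, with 7 below 0 and 4 above, and the chaperones -0.08, with 5 below and 2 above. None of these genes rose or fell by the test.

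These small negative values depended on the samples kept and on the trend with gene length. When single samples were left out, the median ran from -0.18 to 0.003 for the immunoproteasome genes. For the other members it stayed below 0, from -0.11 to -0.016. With the trend with gene length removed, the medians were -0.04 for the immunoproteasome genes and -0.01 for the others. Without vehicle 11 and 12 they were 0.003 and 0.04. Without BG136 6 the median was 0.003 for the immunoproteasome genes and -0.05 for the others. The difference between the 2 medians, immunoproteasome minus other, was -0.03 and ran from -0.07 to 0.05 when single samples were left out.

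**Figure D2:**
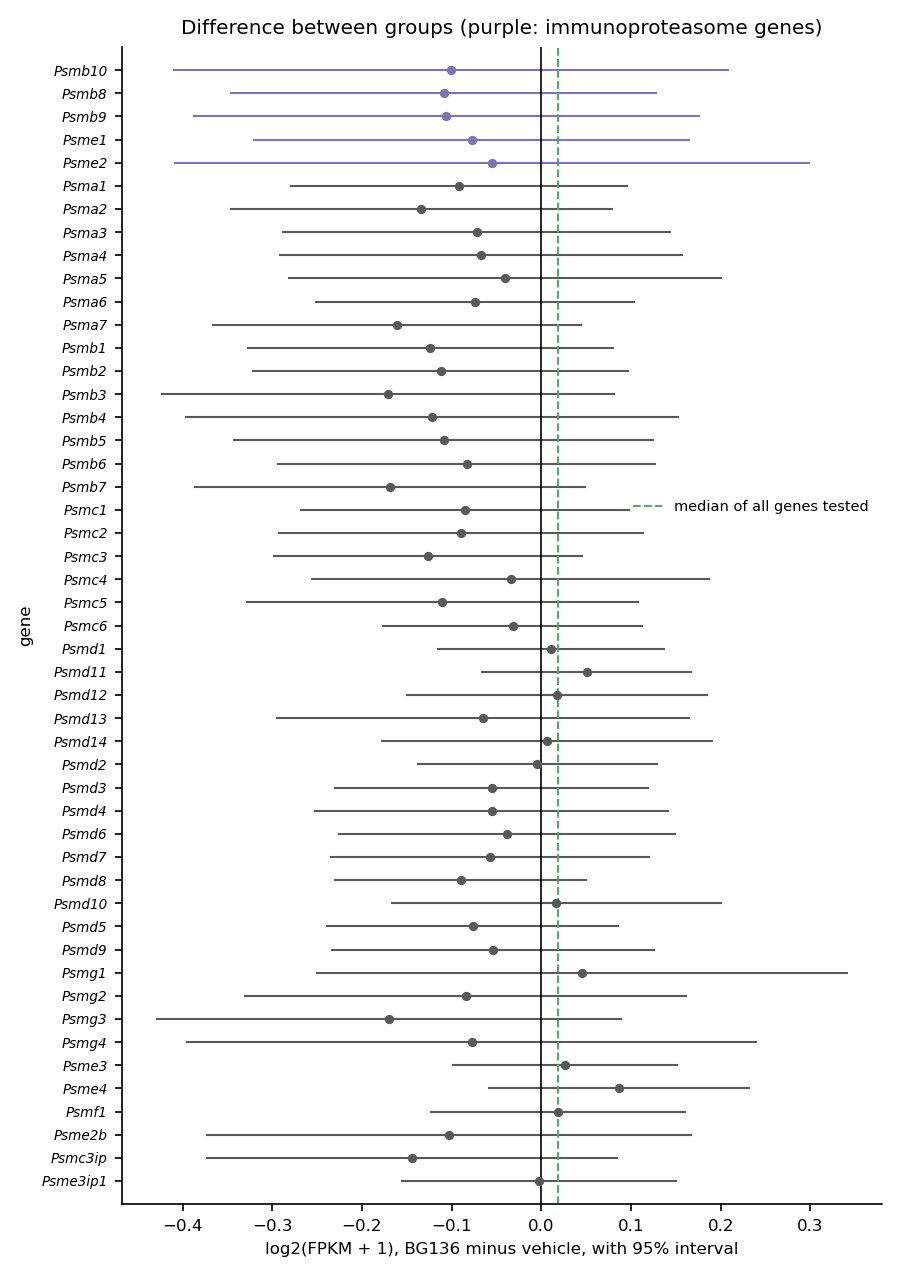
Log2 difference, BG136 minus vehicle, on the log2(FPKM + 1) scale for the 49 members tested, with the 95% interval from limma. The dashed line marks the median of all 11356 genes tested, 0.02. Most points lie left of 0 and every interval crosses 0.

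The members with the smallest limma p were named in each direction. On the lower side they were Psma7, an alpha subunit (160.2 ± 24.8 FPKM in vehicle, 142.0 ± 6.9 in BG136, log2 difference -0.16), Psmb7, Psmc3, an ATPase (123.7 ± 12.2 and 113.1 ± 9.1, -0.13), and Psmb3, a structural beta subunit (217.4 ± 34.4 and 192.5 ± 28.3, -0.17). Each had a limma adjusted p of 0.978 and its highest sample was vehicle 11. Psmb3 shares 39.9% of its 50-base words with a pseudogene. On the higher side, besides Psme4 and Psme3, they were Psmd11, a cap subunit (40.7 ± 1.8 and 42.2 ± 1.8, 0.05), and Psmg1, a chaperone of the alpha ring (25.1 ± 5.5 and 25.5 ± 2.8, 0.05). These differences were smaller than the spread between samples.

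In the authors' deposited table, whose test counted the 12 libraries, Psmd8, a cap subunit, was the member with a p-value under 0.05 (p = 0.032, log2 fold change -0.12), against 766 of 15170 genes (5.05%). No member had a q-value under 0.05 in the authors' deposited table, against 9 genes (0.0593%), and the smallest q-value of a member was 0.931. The authors' deposited table places 46 of 50 members lower and 4 higher in BG136 tumors. Psmd8 was at 156.7, 152.8, 155.9, 167.9, 161.4 and 160.2 FPKM in the vehicle samples and at 144.8, 174.3, 144.9, 142.3 and 142.8 in the BG136 samples. In 4 of 5 BG136 samples it was lower than in any vehicle sample, and in BG136 2 it was higher than in all of them (limma adjusted p = 0.978).

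The variation between tumors, rather than between groups, had a clear structure. Vehicle 11 had the highest level of 37 of the 49 members, 34 of the other members and 3 of the immunoproteasome genes. BG136 2 was highest for 6 members and vehicle 12 for 4. BG136 6 was the lowest sample for 12 members, among them all 5 immunoproteasome genes, and vehicle 1 for 13. After the trend with gene length was removed, vehicle 11 was highest for 14 members and vehicle 12 for 9. The coefficient of variation over 11 samples had a median of 15.3% for the immunoproteasome genes (13.4% to 21.2%) and 11.5% for the others (4.52% to 19.3%), against 12.1% for all genes tested and 11.2% for the 1255 genes with a mean of 50 to 400 FPKM.

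**Figure D3:**
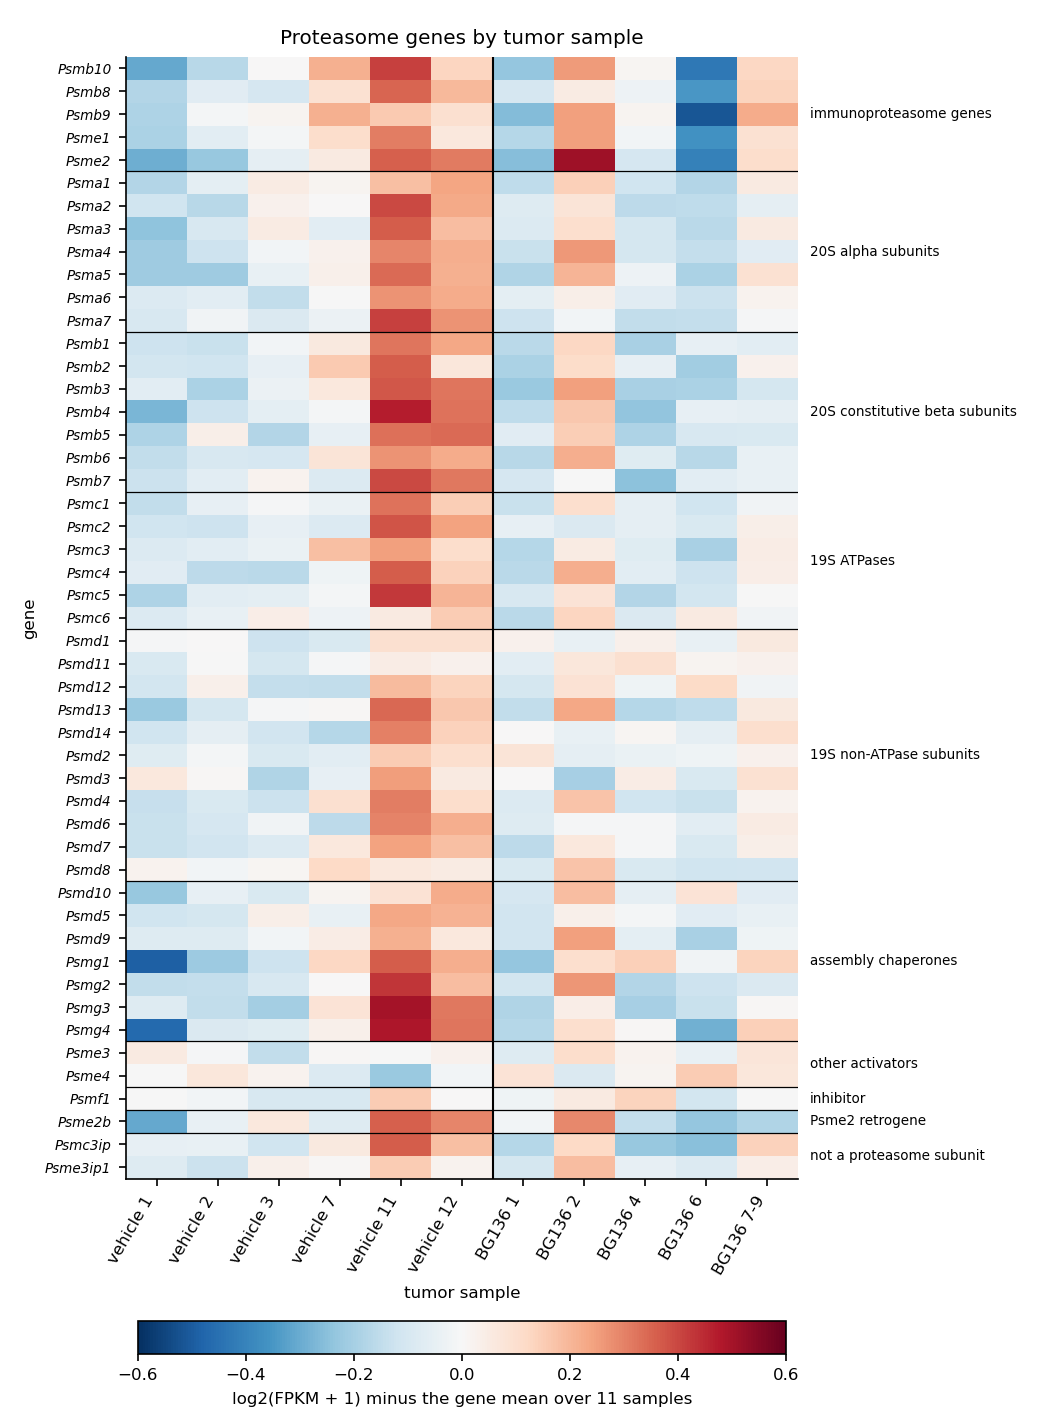
Deviation of each of the 49 members from its own mean over 11 samples, as log2(FPKM + 1), with samples in columns and members grouped by role. Vehicle 11 and 12 are high in nearly all subunit rows, and BG136 6 is lowest in the 5 immunoproteasome rows.

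A mean deviation per sample summarises this, as the average over genes of the distance, in log2, from each gene's own mean. For the immunoproteasome genes it was -0.23, -0.11, -0.03, 0.13, 0.32 and 0.16 in vehicle 1, 2, 3, 7, 11 and 12, and -0.20, 0.26, -0.02, -0.41 and 0.14 in BG136 1, 2, 4, 6 and 7-9. For the other members it was -0.13, -0.08, -0.06, -0.003, 0.27 and 0.17 in the vehicle samples and -0.10, 0.10, -0.08, -0.10 and 0.01 in the BG136 samples. The immunoproteasome genes lay 0.31 below the other members in BG136 6, and above them by 0.16 in BG136 2, 0.14 in vehicle 7 and 0.13 in BG136 7-9. In the other 7 samples the gap was between -0.10 and 0.05. With the length trend removed, the immunoproteasome genes were at -0.31 in BG136 6, 0.17 in BG136 7-9 and 0.04 and 0.01 in vehicle 11 and 12. The other members then stayed between -0.04 and 0.07 in every sample, and the gap was -0.28 in BG136 6, 0.14 in BG136 7-9, 0.13 in vehicle 7 and 0.11 in BG136 2.

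**Figure D4:**
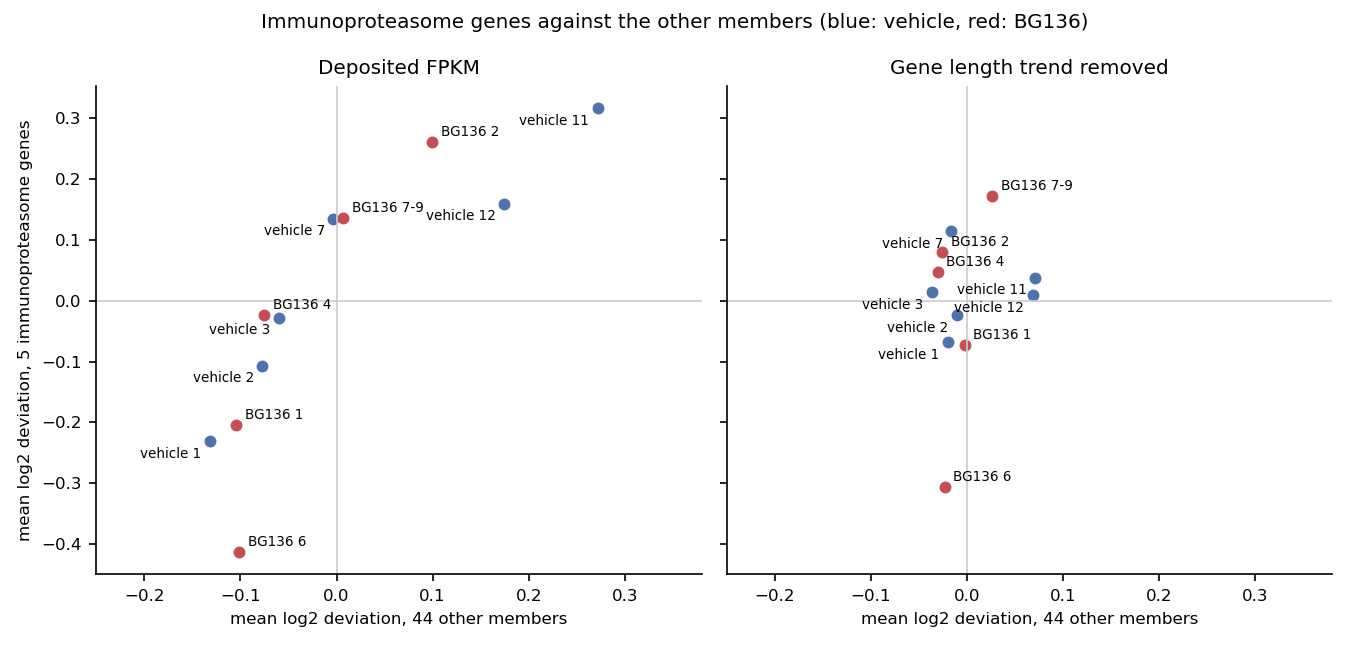
Mean log2 deviation of the 5 immunoproteasome genes against that of the 44 other members in each of the 11 tumor samples, with the deposited FPKM on the left and with the trend with gene length removed on the right. On the left vehicle 11 is high on both axes. On the right the spread along the horizontal axis shrinks to between -0.04 and 0.07 and BG136 6 remains low on the vertical axis, at -0.31.

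Pairwise correlations describe the same structure over 11 samples that share these libraries. The median Pearson r was 0.91 over the 10 pairs of immunoproteasome genes, 0.87 over the 91 pairs of constitutive core subunits and 0.77 between the 2 groups. Psme4 ran against the core subunits, with a median r of -0.74, and Psme3 had a median r of 0.25 with them. Of the immunoproteasome genes Psmb9 had the lowest median r with the core, at 0.57. With the length trend removed, the median was 0.72 among immunoproteasome genes, 0.21 among core subunits, 0.08 between them and 0.35 for Psme4 with the core. What produced the trend was not tested.

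The levels of the 5 immunoproteasome genes were then related to those of Ifng, which encodes interferon-gamma, of Irf1, a factor of its response, of Cd8a, a marker of cytotoxic T cells, and of Ptprc, the leukocyte marker CD45. Of the 25 relations computed, 4 passed an adjusted permutation p of 0.05. The relation of Psmb9 with Cd8a had a Pearson r of 0.88 and a Spearman rho of 0.89 (permutation p = 0.00072, adjusted p = 0.018 over 25 relations, n = 11). Cd8a was at 5.41 FPKM in BG136 6 and 20.4 in BG136 2, the lowest and the highest samples, and Psmb9 had its lowest and highest levels in the same samples. Without these 2 samples r was 0.69 (permutation p = 0.0419, unadjusted, n = 9), and within the 6 vehicle samples 0.57 (exact permutation p = 0.232). For Psmb9 with Cd8a the adjusted permutation p was 0.0587 without BG136 1, where r was 0.89, 0.0565 without BG136 2, where r was 0.86, and 0.35 without BG136 6, where r was 0.75. The call was thus lost without any of these 3 samples, with r about as large without BG136 1 or 2 and lower without BG136 6.

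The other relations that passed were Psmb9 with Ifng (r = 0.78, rho = 0.75), Psmb10 with Cd8a (r = 0.74, rho = 0.73) and Psme1 with Cd8a (r = 0.75, rho = 0.76), each with an adjusted permutation p of 0.0487 over 11 samples. By rank, Psmb9 with Cd8a alone passed (adjusted permutation p = 0.0125), and the smallest adjusted p of the other 24 was 0.0725. Without the 2 samples farthest from the median of the partner gene these 3 had r of 0.50, 0.52 and 0.42, with permutation p of 0.177, 0.148 and 0.254. Within the 6 vehicle samples r was -0.04, 0.47 and 0.32. The calls of Psmb10 with Cd8a and Psme1 with Cd8a were lost without any single sample other than vehicle 11 (adjusted permutation p = 0.0535 to 0.406), and that of Psmb9 with Ifng without any other than vehicle 1 or 11 (adjusted permutation p = 0.0512 to 0.388). In all 3, r was lowest without BG136 6, at 0.60, 0.59 and 0.56 in the order above, and lay between 0.70 and 0.83 without any other single sample except vehicle 11, where it was 0.82, 0.88 and 0.90. Psmb8 and Psme2 had r of 0.58 and 0.65 with Cd8a and did not pass (adjusted permutation p = 0.146 and 0.0924). Without vehicle 11 and 12, Pearson r with Cd8a was 0.83 to 0.93 for the 5 genes. The summed T cell markers, which include Cd8a itself, were lowest in BG136 6 and highest in BG136 2, as Cd8a was. Their part in these relations was not tested.

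No relation with Irf1 or Ptprc passed over the 11 samples with the deposited FPKM. With the length trend removed, Psmb9 with Irf1 passed (r = 0.85, adjusted permutation p = 0.0068), as did Psmb10 with Ptprc (r = 0.71, adjusted permutation p = 0.025). Psmb8 with Irf1, Psmb8 with Ptprc and Psmb10 with Irf1 did not pass there, at r of 0.52, 0.40 and 0.44. Irf1 was at 143.7 ± 18.1 FPKM (SD, n = 6) in vehicle and 140.0 ± 27.4 (SD, n = 5) in BG136 tumors, where it ran from 93.5 in BG136 6 to 159.9 in BG136 7-9. Its r with the 5 genes was 0.15 to 0.58 over 11 samples, with adjusted permutation p of 0.146 to 0.730. Without the 2 samples farthest from the Irf1 median, BG136 6 and vehicle 11, r was -0.18 to 0.25, and within the vehicle samples -0.87 to -0.48. For Ptprc, r was -0.01 to 0.45 over all samples and -0.67 to -0.19 within the vehicle samples. Without vehicle 11 and 12 it was 0.70 to 0.81 and all 5 relations passed, with adjusted permutation p from 0.0209 (Psmb9 with Ptprc) to 0.0446 (Psme2 with Ptprc). Vehicle 11 had the highest mean deviation of the immunoproteasome genes among all samples and, among vehicle samples, the lowest Irf1, at 117.0 FPKM. Without vehicle 11 and 12, r with Irf1 was 0.49 to 0.78 and 3 of the 5 relations passed, with adjusted permutation p from 0.0253 (Psmb9 with Irf1) to 0.0457 (Psme1 with Irf1).

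**Figure D5:**
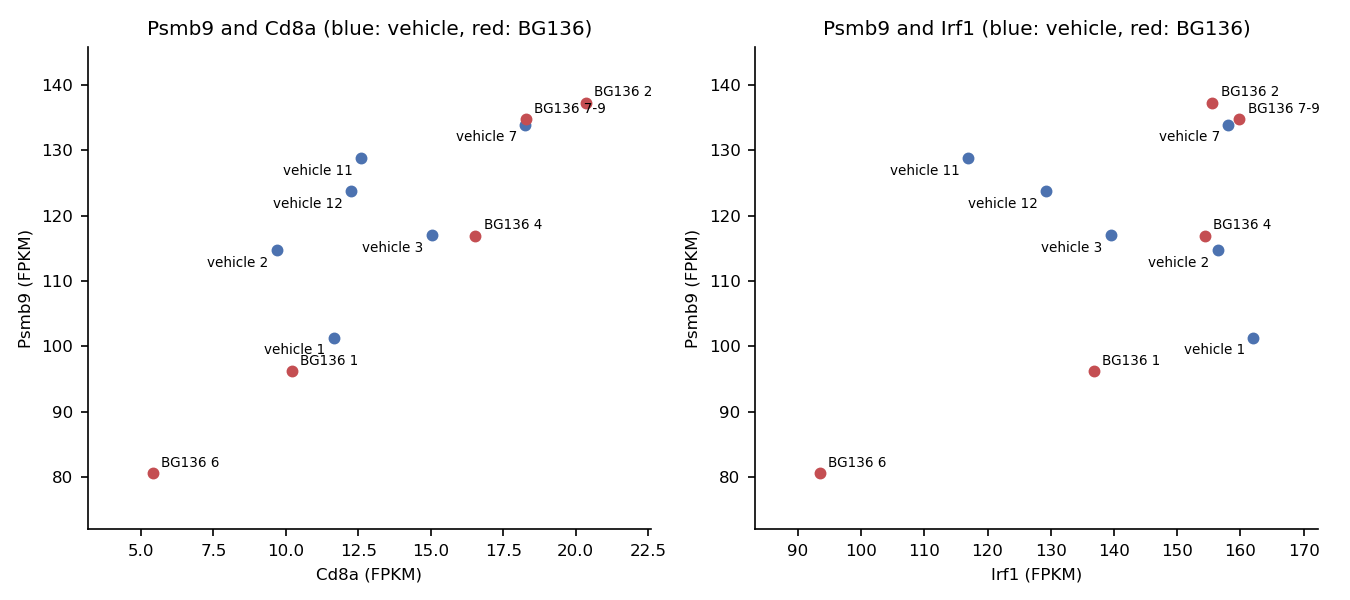
Psmb9 against Cd8a (left) and against Irf1 (right) in FPKM, with each of the 11 tumor samples as a point. Psmb9 and Cd8a lie along a rising line with BG136 6 at its low end and BG136 2 at its high end. On the right the 6 vehicle samples run from 117.0 to 162.0 FPKM of Irf1, and vehicle 1, with the most Irf1, has the least Psmb9 of them, 101.3.

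No partner of the proteasome passed the test either. Of 25 such genes 24 passed the filter, and 0 rose and 0 fell by limma, as was so for all 11356 genes tested. Of the 24, 13 were above 0 and 11 below, with a median log2 difference of 0.01, against 42.6% of all genes tested below 0. Pomp, which matures the core, was at 124.9 ± 21.4 FPKM in vehicle and 114.7 ± 23.4 in BG136 tumors. Nfe2l1, the factor that raises proteasome genes when the proteasome is blocked, was at 90.8 ± 7.1 and 93.4 ± 6.9. Sem1, the smallest cap subunit, was at 254.0 ± 55.8 and 219.9 ± 33.0, and Ubb, which encodes ubiquitin, at 577.8 ± 54.9 and 519.4 ± 32.4, a log2 difference of -0.15 (limma adjusted p = 0.978).

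Of the 20 genes of interferon-gamma signalling and class I presentation, 0 rose and 0 fell by limma, as was so for all 11356 genes tested. Of the 20, 10 were above 0 and 10 below, with a median of 0.01, against 42.6% of all genes tested below 0. Tap1, whose start lies back to back with that of Psmb9 in the sequence above, was at 129.7 ± 3.9 FPKM in vehicle and 133.9 ± 29.7 in BG136 tumors, from 89.5 in BG136 6 to 167.8 in BG136 2. B2m, the light chain of class I molecules, was at 4138 ± 202 and 4060 ± 447, and H2-K1, a class I heavy chain, at 1303 ± 101 and 1286 ± 183. Jak2, a kinase of the interferon-gamma receptor, was at 9.95 ± 1.44 and 11.3 ± 0.5 (log2 difference 0.18, limma adjusted p = 0.978). The BG136 samples had a larger SD than the vehicle samples in Tap1, B2m and H2-K1, as in Psmb9, Psme1 and Psme2 but not in Psmb8 and Psmb10. This did not hold for the whole list. The vehicle samples had the larger SD in Ifngr1, Jak2, Nlrc5, Calr (108.6 against 41.9 FPKM), Pdia3, Canx and H2-D1 (110.4 against 96.5). BG136 6 was the lowest of the 11 samples in Tap1, B2m and H2-K1. A difference in spread was not tested.

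Among 11307 other genes tested, the 8 whose log2 levels followed the mean of the 5 immunoproteasome genes most closely over 11 samples were Ino80e, Emp3, Mapkapk5, Chmp2a, Pgd, Ube2m, Smn1 and H2ax, with Pearson r of 0.956 to 0.964. H2-K1 ranked 15 with r of 0.94, Pomp 121 with 0.90, Tapbp 234 and Tap2 243 with 0.87 each, and Tap1 1575 with 0.70. Jak1 had r of -0.74. These r include the trend with gene length. By their names 2 members are no proteasome subunits: Psmc3ip, a factor of meiotic recombination (6.75 ± 1.00 FPKM in vehicle and 6.02 ± 0.94 in BG136), and Psme3ip1, a binding partner of the Psme3 protein (20.6 ± 1.5 and 20.6 ± 1.8). Without them the median log2 difference of the other members was again -0.07.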

How the data were processed

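Total RNA of tumor blocks was made into stranded poly(A) libraries, per the labels' protocols. The authors deposited FPKM per library (fragments per kilobase, scaled to library size; the values, not the header, show this unit). The submitters' processing notes list HISAT2, HTSeq, Cufflinks, DESeq and Trimmomatic on GRCm39. Their order, versions and strand setting are not given in the sources used. Per the file headers, the deposited base mean is a signal averaged over libraries from DESeq2, and the authors' comparison gives a p-value, a q-value and a fold change, also as log2. Whole reads were recovered from FPKM and base means (100% of values within 0.1 of a whole number) for depth, implied gene lengths and the voom alternative. BG136 libraries 7 and 9 were averaged.

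Values were tested as log2(FPKM + 1) with limma 3.58.1 in R 4.3.3 (moderated linear model, mean-variance trend, two-sided, Benjamini-Hochberg, threshold 0.05). Genes needed an FPKM of at least 1 in at least 6 of 11 samples. The steps were also run on simulated reads with known changes in some genes. Those reads had no length trend and no variation shared between genes, so the run cannot speak to either. Correlations used 100000 permutations, two-sided, adjusted over 25 relations, of which 5 are not reported here. For the length trend, genes were sorted by length into bins of equal size, and each bin's median deviation per sample was subtracted. This was an alternative chosen after seeing the data, as was leaving out BG136 6 and vehicle 11 and 12 together.

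The members, lists and tests were chosen with earlier results of these data known. Genes named in full were the 5 immunoproteasome genes, Psmb5, Psmb6, Psmb7, Psme3, Psme4, Psmf1 and the 4 members with the smallest p in each direction. Psmd8, Psme2b and single partner genes were named after their values were seen. Promoters are from RefSeq on GRCm38.p6, another build than that of the table.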

Additional observations from a re-analysis of the deposited data

Results flagged for a closer look

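Psme3, the nuclear PA28 subunit, was at 57.5 FPKM in vehicle 3, while the other 5 vehicle samples lay between 63.6 and 66.5. The gap to the nearest sample was 0.674 of the range of the group, above Dixon's 95% critical value of 0.625 for 6 samples. Psmb3, a structural beta subunit, was at 242.1 FPKM in BG136 2, while the other 4 BG136 samples lay between 174.8 and 189.3. The gap was 0.785 of the range, above the critical value of 0.71 for 5 samples. Of 44 groups of values examined 2 stood out, and chance gives about 1 in 20.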

How the results depend on the processing

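No gene passed the adjusted threshold in the reported fit or in any alternative fit, leaving out each sample included; at an unadjusted p under 0.05 they gave 149 to 474 genes. Replicate numbers 1, 2 and 7 occur in both groups, and the deviations of same-numbered samples had correlations of 0.49, -0.42 and 0.26. The first was the highest and the second the lowest of all pairs of a vehicle and a BG136 sample. These 3 values cannot decide whether the numbers pair the samples. With the numbers as a replicate block, which leaves the 3 same-numbered pairs to carry the difference, the medians of log2 differences were 0.068 for the ATPases, 0.062 for the other cap subunits, 0.086 for the alpha subunits and 0.062 for the members other than the immunoproteasome genes. With the block these genes were above 0: Psma7 0.00033, Psmb3 0.037, Psmb5 0.062, Psmb6 0.058, Psmb7 0.041, Psmb8 0.077, Psmb9 0.064, Psmb10 0.14, Psme1 0.11 and Psme2 0.27. Without vehicle 11 and 12 together, the cap subunit median was 0.058, and Psmb5 was at 0.034, Psmb6 at 0.021, Psmb8 at 0.0026, Psmb10 at 0.010 and Psme2 at 0.10. Without BG136 6 and vehicle 11 and 12, the cap subunit median was 0.074, and Psmb5 was at 0.044, Psmb6 at 0.051, Psmb8 at 0.075, Psmb9 at 0.048, Psmb10 at 0.10, Psme1 at 0.078 and Psme2 at 0.19. With the length trend removed, Psme2 was at 0.0051, Psme3 at -0.010 and Psmf1 at -0.0015. When single samples were left out, the log2 differences ran from -0.18 to 0.0083 for Psmb9, -0.15 to 0.0029 for Psme1, -0.19 to 0.039 for Psme2, -0.0012 to 0.049 for Psme3, -0.011 to 0.051 for Psmf1 and -0.048 to 0.12 for Psmg1. The number of relations past the threshold ran from 0 (without BG136 1, 2 or 6) to 9 (without vehicle 11); it was 2 without vehicle 1 and 1 without vehicle 2, 3, 7 or 12 or BG136 4 or 7-9. It was 20 without vehicle 11 and 12, 15 with the length trend removed and 1 after upper quartile scaling. The r of Psmb8 with Ptprc was 0.071 with 12 libraries, 0.40 with the length trend removed, 0.78 without vehicle 11 and 12 and 0.56 without BG136 6 as well, and ran from -0.39 to 0.32 when single samples were left out. With single samples left out, r ran from -0.40 to 0.52 (Irf1) and -0.051 to 0.54 (Ptprc) for Psmb10, from -0.58 to 0.55 (Irf1) for Psmb8, from -0.36 to 0.63 (Irf1) and -0.069 to 0.56 (Ptprc) for Psme1, and from -0.38 to 0.34 (Irf1) and -0.12 to 0.32 (Ptprc) for Psme2; each of these lowest values came without BG136 6. The cause of these changes was not tested.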
